A study of Mus musculus with 6 samples.

Results

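The genes described here are 9 macrophage polarization and scavenger genes, measured by RNAseq in 6 mammary tumors of NeuT/ATTAC mice, 3 given IgG and 3 given anti-PD-1 mAb. They are Mrc1, Retnla, Chil3, Nos2, Cd68, Gpnmb, Msr1, Marco and Cd163, and they were found among the 54532 Ensembl gene IDs of each tumor by matching the ID to its symbol in the mouse GRCm38 annotation. All 9 were found, 6 were expressed highly enough to be tested, and 3 (Chil3, Nos2 and Marco) were not. The question was whether a higher Cd68 under anti-PD-1 was shared by other macrophage genes. Cd68 is also in the study's own list of genes that differed between these tumors, so its direction here is not independent evidence.

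NeuT/ATTAC mice came from a cross of MMTV-NeuT mice, in which the mammary tumor virus promoter drives Erbb2 in the mammary gland, with FAT-ATTAC mice, in which AP20187 ablates fat cells, on the FVB strain. To induce fibrosis, AP20187 at 0.4 mg/kg was injected into mice of both groups starting at 6 weeks of age, and treatment with 100 μg of an isotype-specific IgG or of anti-PD-1 mAb started at 8 weeks. AP20187 was given biweekly by the sample labels and triweekly by the methods, and there was no group without it. The labels do not say that the 3 tumors of a group came from separate animals and a legend of the study describes the RNA as pooled, so p-values measure only the spread between these samples. Between 21075641 and 23852764 reads per tumor were recovered from the values, counting only genes whose values gave whole reads in all 6 tumors. No tumor was left out.

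Macrophages take on different states according to the signals they meet. In the mouse, interferon and bacterial products induce Nos2, which makes nitric oxide from arginine, whereas IL-4 and IL-13 induce Mrc1, Retnla and Chil3. Scavenger receptors such as Msr1, Marco and Cd163 bind modified lipoproteins, microbes or hemoglobin, and Cd68 and Gpnmb are glycoproteins of the lysosome and endosome that many macrophages carry. In tumors these states are mixed, and several of the genes are also made by other cells.

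The values deposited by the authors are FPKM, the fragments counted on a gene scaled to its length and to the library total. They were compared as log2(FPKM + 1), a scale on which differences in weakly expressed genes come out smaller. A log2 fold change is the mean of the anti-PD-1 tumors minus that of the IgG tumors on this scale, and genes of a list are counted as higher or lower by its sign, with its standard error (SE) and a two-sided adjusted p from limma over the 15069 genes that averaged at least 0.5 FPKM. With 3 tumors in each group, 0.1 is the smallest p that an exact permutation test can reach. Across all genes tested, limma called 0% at an adjusted p under 0.05, and the smallest adjusted p was 0.0809. At an unadjusted p under 0.05 there were 1848 genes. Fitted with limma's voom on reads recovered from the FPKM, 1 gene passed the adjusted threshold, Fetub, a secreted protein made mainly by liver, which is no macrophage gene and was named after its values were seen.

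The promoter sequences of Cd68, Mrc1 and Cd163 are shown because Cd68 was higher in every anti-PD-1 tumor whereas Mrc1 and Cd163 were both lowest in anti-PD-1 replicate 2 and highest in anti-PD-1 replicate 3. They are the 250 bases before to 50 bases after the annotated start in RefSeq on GRCm38.p6, written 5′ to 3′ on the strand of the gene. Capitals mark matches on either strand to GAGGAA (the core read by PU.1, the factor that defines the myeloid lineage), to TGANTCA (read by AP-1) or to ACGTG (the core read by hypoxia-inducible factors). The windows are chr11:69666121-69666420 on the minus strand for Cd68, chr2:14229164-14229463 on the plus strand for Mrc1 and chr6:124304401-124304700 on the plus strand for Cd163.
Cd68: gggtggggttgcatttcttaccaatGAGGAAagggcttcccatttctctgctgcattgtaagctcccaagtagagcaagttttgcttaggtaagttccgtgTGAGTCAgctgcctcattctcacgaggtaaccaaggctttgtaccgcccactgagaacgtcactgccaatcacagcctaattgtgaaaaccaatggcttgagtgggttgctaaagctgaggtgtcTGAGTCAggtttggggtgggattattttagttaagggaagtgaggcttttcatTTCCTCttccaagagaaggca
Mrc1: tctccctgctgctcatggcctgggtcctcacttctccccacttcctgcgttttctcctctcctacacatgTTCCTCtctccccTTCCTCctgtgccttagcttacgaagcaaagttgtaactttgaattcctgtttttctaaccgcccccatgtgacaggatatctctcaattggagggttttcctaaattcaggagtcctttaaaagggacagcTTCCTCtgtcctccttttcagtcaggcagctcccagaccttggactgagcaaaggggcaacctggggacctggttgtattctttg
Cd163: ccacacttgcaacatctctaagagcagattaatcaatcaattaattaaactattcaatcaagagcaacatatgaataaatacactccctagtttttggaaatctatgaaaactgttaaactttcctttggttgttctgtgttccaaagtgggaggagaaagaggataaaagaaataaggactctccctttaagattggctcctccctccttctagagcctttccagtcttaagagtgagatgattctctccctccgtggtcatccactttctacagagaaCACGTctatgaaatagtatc

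Cd68 held 2 matches to the PU.1 core and 2 to the AP-1 motif, Mrc1 held 3 to the PU.1 core, and Cd163 held 1 to the hypoxia core. Of the 7 members with a sequence in the table used, 4 (Mrc1, Retnla, Cd68 and Marco) held GAGGAA, against 28.3% of 32851 mouse promoter windows of the same length. The AP-1 motif was in 2 of the 7 (Cd68 and Gpnmb) and in 7.81% of all windows, and ACGTG was in 1 of the 7 and in 19.6% of all windows. The palindrome read by STAT factors, TTCNNNGAA, was in 1 of the 7 (Chil3) and in 8.30% of all windows. CACGTG, the E-box read by Mitf and Tfeb, which contains the hypoxia core, was in 0 of the 7 and in 7.15% of all windows. These matches describe the letters of the windows and say nothing of binding.

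Cd68 (ENSMUSG00000018774, minus strand, chr11:69664213-69666153) is the lysosomal glycoprotein commonly stained to count macrophages. It was 18.1, 15.1 and 13.7 FPKM in the IgG tumors and 22.1, 30.5 and 29.1 FPKM in the tumors given anti-PD-1, here and below in the order of replicates 1 to 3. All 3 anti-PD-1 values exceeded all 3 IgG values. In whole tumors, more cells of a type and more RNA per cell cannot be told apart. Group means were 15.6 ± 2.26 FPKM (SD, n = 3) and 27.2 ± 4.51 FPKM (SD, n = 3). The log2 fold change was 0.76 (SE 0.19, limma unadjusted p = 0.00438, adjusted p = 0.344), with an exact permutation p of 0.1. Leaving out each tumor in turn gave 0.67 to 0.90, with a highest limma unadjusted p of 0.0188. As the groups did not overlap, leaving out a tumor could not turn the direction. By unadjusted p, Cd68 ranked 178 among all genes tested.

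Markers of other cells were read beside Cd68. Of the 8 epithelial markers, all tested, 4 were higher and 4 lower with a median log2 fold change of 0.00; none was higher at an unadjusted p under 0.05 and 1 (Krt19) was lower. Epcam (683 to 878 FPKM with IgG, 986 to 1142 with anti-PD-1) and Erbb2, whose reads could include those of the transgene (20.2 to 23.0 and 25.0 to 31.3), were higher in every anti-PD-1 tumor, and Krt19 (7.39 to 77.3 and 1.69 to 5.23) was lower in every one, where 9.3% of all genes tested were higher without overlap and 8.75% lower. Cdh1 (-0.34), Krt5 (-0.52) and Krt14 (-0.42) had negative log2 fold changes with overlapping groups. Krt18, with Epcam the most abundant of them, overlapped between the groups at 678 to 952 and 754 to 1377 FPKM. The epithelial markers summed to 1901 to 2631 FPKM with IgG and to 2519 to 3627 FPKM with anti-PD-1. The sums of the 10 T and NK cell markers (2.92 to 9.34 FPKM with IgG, 1.38 to 2.396 with anti-PD-1) and of the 5 melanocyte markers (0.94 to 1.23 and 1.79 to 2.20) did not overlap between the groups. That rested on Gzmb (1.57 to 4.84 FPKM with IgG, 0 to 0.597 with anti-PD-1) and on Mlana (0 to 0.326 and 0.876 to 1.25). Without Gzmb and Mlana, the sums of both lists overlap. The part of these cells in the Cd68 difference was not tested.

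**Figure D1:**
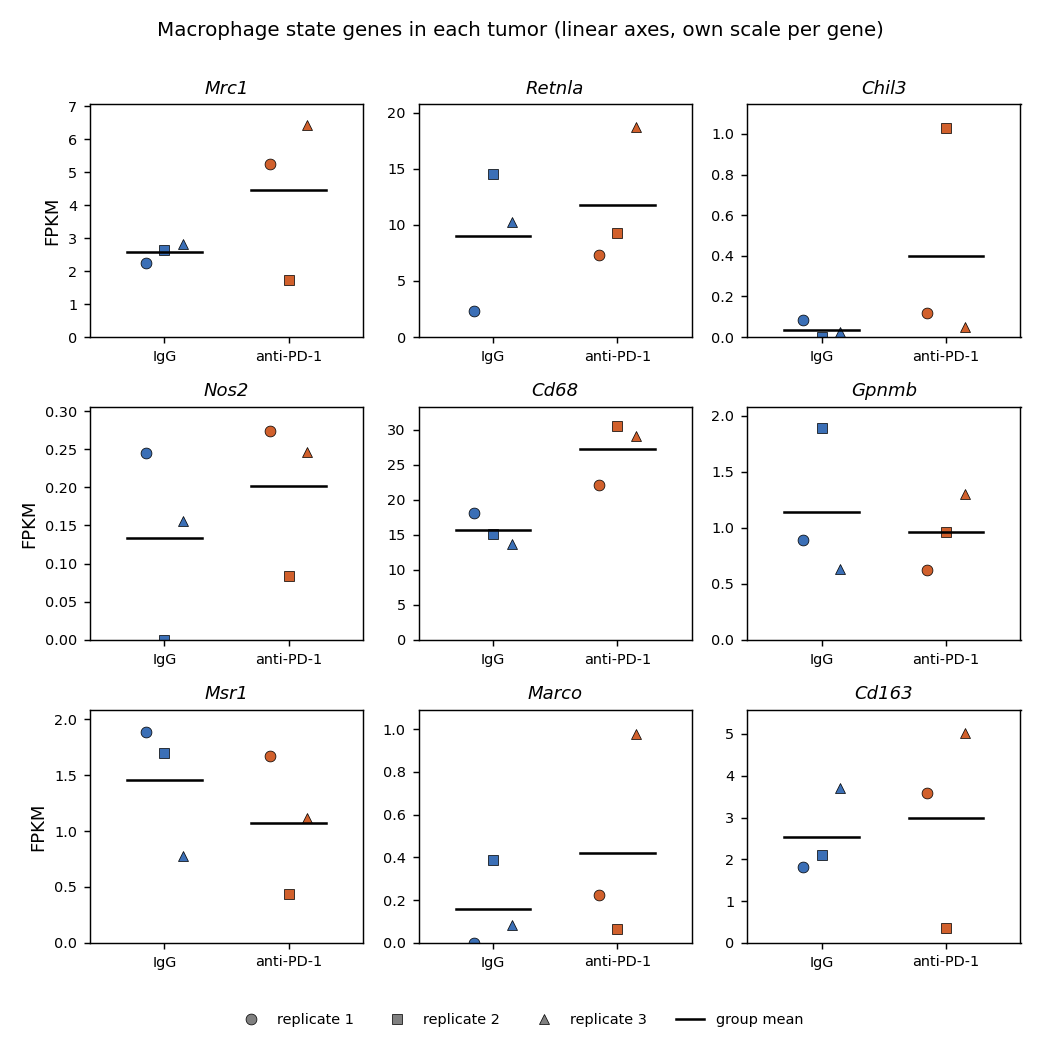
FPKM of each of the 9 genes in the 3 IgG tumors (blue) and the 3 anti-PD-1 tumors (orange), on a linear axis that starts at 0 and has its own scale per gene; symbols mark the replicate number and lines the group mean. Cd68 (22.1 to 30.5 against 13.7 to 18.1) is the panel in which the groups do not overlap.

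Mrc1, Retnla and Chil3 are classic genes of the IL-4 and IL-13 state. Mrc1 (ENSMUSG00000026712, plus strand, chr2:14229392-14332057) encodes the mannose receptor CD206. Its values were 2.25, 2.65 and 2.82 FPKM with IgG and 5.24, 1.72 and 6.43 FPKM with anti-PD-1. In 2 anti-PD-1 tumors it was higher than in any IgG tumor and in anti-PD-1 replicate 2 it was lower than in any. The log2 fold change was 0.49 (SE 0.37, limma adjusted p = 0.609, exact permutation p = 0.4). Without anti-PD-1 replicate 2, a choice that removes the one tumor of the opposite direction, it was 0.93 (limma unadjusted p = 0.00295, adjusted p = 0.505), whereas it was 0.21 without anti-PD-1 replicate 3 and 0.33 without anti-PD-1 replicate 1. Mir511, which lies within Mrc1, was listed at 0 in every tumor.

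Retnla (ENSMUSG00000061100, plus strand, chr16:48842551-48844461), a secreted protein of the resistin family also called Fizz1, was 2.33, 14.5 and 10.2 FPKM with IgG and 7.35, 9.30 and 18.7 FPKM with anti-PD-1. The groups overlapped, with the lowest value in IgG replicate 1 and the highest in anti-PD-1 replicate 3. Its log2 fold change of 0.52 (SE 0.59, limma adjusted p = 0.748, exact permutation p = 0.7) turned to -0.15 without IgG replicate 1.

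Chil3 (ENSMUSG00000040809, minus strand, chr3:106147554-106167564) encodes the chitinase-like protein Ym1. It had 3, 0 and 1 reads with IgG and 5, 41 and 2 with anti-PD-1, or 0.083, 0 and 0.025 and 0.119, 1.03 and 0.051 FPKM. It was thus near the limit of detection in all but anti-PD-1 replicate 2, and the 0 of IgG replicate 2 allows a level of up to 0.0760 FPKM (3 reads, counting error only). Neutrophils also make Chil3. Of 13 neutrophil markers, 3 (S100a8, Ly6g and Mpo) were highest in anti-PD-1 replicate 2, 5 in anti-PD-1 replicate 1 and 5 in IgG tumors, and their part in the Chil3 reads was not tested. Fitted without the filter on low FPKM, the log2 fold change of Chil3 was 0.37 (limma adjusted p = 0.736).

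The near copies of these genes were read for comparison. Chil4 and Retnlb had no reads in any tumor and Retnlg at most 4. How reads that match more than one of these genes were assigned is not given in the sources used here, so the values of Chil3 and Retnla are uncertain to that extent.

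Nos2 (ENSMUSG00000020826, plus strand, chr11:78920787-78960254), the inducible nitric oxide synthase, is the member that marks the interferon state. It was 0.245, 0 and 0.156 FPKM with IgG and 0.274, 0.084 and 0.247 FPKM with anti-PD-1, from 0 to 31 reads per tumor. The groups overlapped at a level too low for the test, and the 0 of IgG replicate 2 allows up to 0.0281 FPKM. Without the filter, the log2 fold change of Nos2 was 0.09 (limma adjusted p = 0.792).

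Gpnmb (ENSMUSG00000029816, plus strand, chr6:49036546-49070929), which marks lipid-laden and phagocytic macrophages, is like Cd68 a glycoprotein of lysosome-related vesicles. Unlike Cd68, it did not separate the groups: it was 0.892, 1.89 and 0.635 FPKM with IgG and 0.622, 0.962 and 1.298 FPKM with anti-PD-1. The log2 fold change was -0.10 (SE 0.28, limma adjusted p = 0.906, exact permutation p = 0.8), and it was 0.14 when IgG replicate 2 was left out and 0.03 when anti-PD-1 replicate 1 was. Melanocytes also make Gpnmb. Of their 5 markers, Tyr, Tyrp1 and Dct had no reads, Pmel overlapped at 40 to 54 reads per tumor, and Mlana was higher in every anti-PD-1 tumor from at most 32 reads (log2 fold change 0.86, SE 0.22, limma adjusted p = 0.344), having passed the filter only through those tumors. Their part in the Gpnmb values was not tested.

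Msr1, Marco and Cd163 are scavenger receptors of the cell surface. Msr1 (ENSMUSG00000025044, minus strand, chr8:39581685-39642673) takes up oxidized lipoproteins. Its values were 1.89, 1.70 and 0.780 FPKM with IgG and 1.67, 0.439 and 1.12 FPKM with anti-PD-1, with overlap between the groups (log2 fold change -0.26, SE 0.30, limma adjusted p = 0.757, exact permutation p = 0.5). Leaving out each tumor in turn gave -0.47 (without IgG replicate 3) to -0.02 (without anti-PD-1 replicate 2). With 0.1 added in place of 1 before the log it was -0.48 (limma adjusted p = 0.746). With voom on recovered reads it was -0.52 (limma adjusted p = 0.720). Marco (ENSMUSG00000026390, minus strand, chr1:120474538-120505024) binds bacteria and particles and was 0, 0.387 and 0.084 FPKM with IgG and 0.223, 0.064 and 0.978 FPKM with anti-PD-1, from 0 to 45 reads. It was below the filter, the 0 of IgG replicate 1 allows up to 0.0702 FPKM, and the unfiltered log2 fold change was 0.26 (limma adjusted p = 0.747).

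Cd163 (ENSMUSG00000008845, plus strand, chr6:124304656-124330527) clears hemoglobin bound to haptoglobin. It was 1.81, 2.11 and 3.72 FPKM with IgG and 3.58, 0.353 and 5.02 FPKM with anti-PD-1. Anti-PD-1 replicate 2 was far below every other tumor and anti-PD-1 replicate 3 was the highest, as for Mrc1. The log2 fold change was -0.05 (SE 0.54, limma adjusted p = 0.978, exact permutation p = 0.9), it was 0.18 without IgG replicate 3, and leaving out anti-PD-1 replicate 2 gave 0.60 (limma unadjusted p = 0.0840).

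Read together, the 6 tested genes did not move one way. The log2 fold change was positive in 3 of them (Cd68, Retnla and Mrc1) and negative in 3, with a median log2 fold change of 0.22, beside 50.8% higher and a median of 0.01 over all genes tested. By mean FPKM 4 were higher, since Cd163 averaged 2.98 FPKM with anti-PD-1 and 2.54 with IgG. At an unadjusted p under 0.05, 1 gene was higher (Cd68), where 6.22% of all genes were, and 0 were lower, where 6.05% were. The groups did not overlap for 1 higher gene, also Cd68, against a background of 9.3% of all genes, and for 0 lower genes against 8.75%. None of the 6 passed the adjusted threshold. For the other 5 tested members (Mrc1, Retnla, Gpnmb, Msr1 and Cd163) the groups overlapped and the median was -0.05. The higher Cd68 was thus not matched by a second member whose groups separated.

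The members varied widely among the anti-PD-1 tumors. Anti-PD-1 replicate 2 was the lowest of the 6 tumors for 3 of the 6 tested genes (Mrc1, Msr1 and Cd163) and the highest for 1 (Cd68), while anti-PD-1 replicate 3 was the highest for 3 (Mrc1, Retnla and Cd163). Relative to each gene's mean over the 6 tumors, the median of the tested members was -0.22, 0.08 and -0.22 on the log2 scale in the IgG tumors and 0.19, -0.32 and 0.65 in the anti-PD-1 tumors. Across the 6 tumors, Cd68 had a Pearson r of 0.261 with Mrc1, 0.189 with Retnla and -0.251 with Cd163. These are descriptions over 6 tumors that share the group difference.

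**Figure D2:**
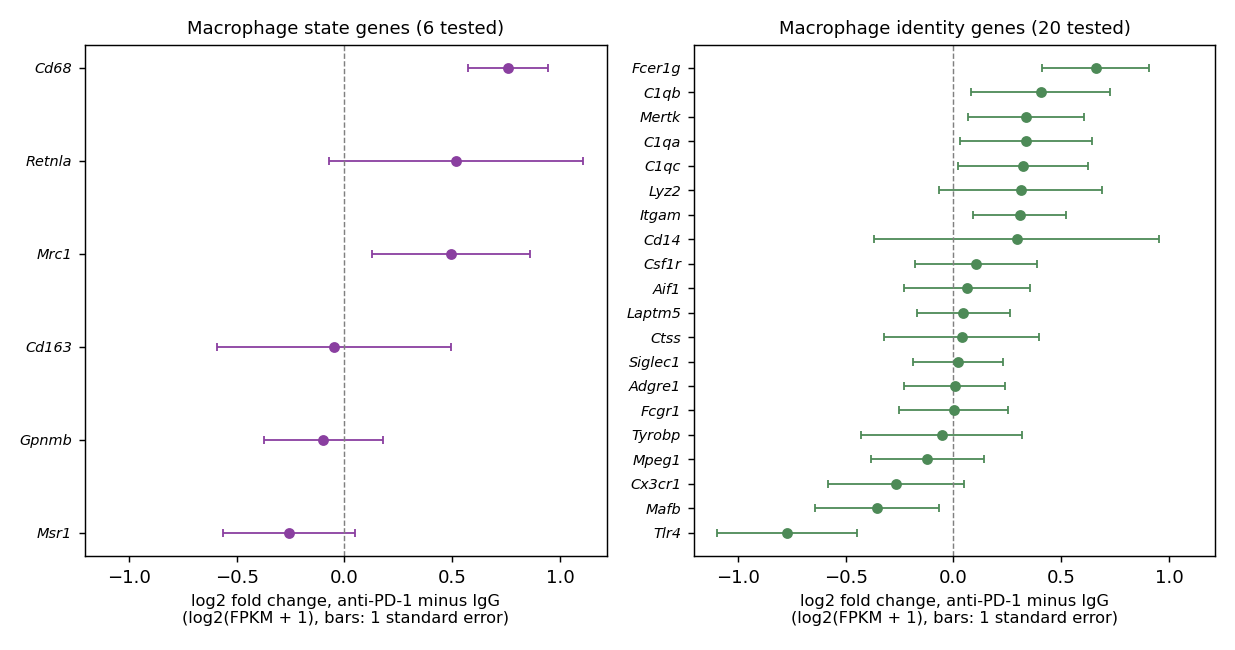
Log2 fold change of anti-PD-1 against IgG tumors, on the log2(FPKM + 1) scale with bars of 1 standard error, for the 6 tested macrophage state genes (left) and 20 macrophage identity genes (right). Cd68 at 0.76 and Msr1 at -0.26 lie at the ends of the left panel, while the identity genes lie between -0.77 and 0.66 around a median of 0.06.

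Whether the tumors held more macrophage RNA overall was read from 20 macrophage identity genes, none of which is a member. All 20 were detected and tested, and their FPKM summed to 610 to 1349 in the IgG tumors and to 864 to 1234 in the anti-PD-1 tumors. On the log2 scale 15 were higher and 5 lower with anti-PD-1, with a median log2 fold change of 0.06, whereas by mean FPKM 12 were higher. That median turned negative when replicate 3 of either group was left out (-0.04 for IgG, -0.05 for anti-PD-1), and it rose to 0.22 and 0.21 when replicate 2 of IgG or of anti-PD-1 was. One gene was higher at an unadjusted p under 0.05 and 1 lower, beside 6.22% and 6.05% of all genes tested, and 1 was higher without overlap, beside 9.3%. The higher gene was Fcer1g, the shared signaling chain of Fc receptors. It was 12.0, 21.8 and 15.9 FPKM with IgG and 32.8, 24.4 and 22.0 FPKM with anti-PD-1, without overlap (log2 fold change 0.66, SE 0.25, limma adjusted p = 0.380). Tlr4, the receptor for lipopolysaccharide, was lower at 2.97 to 4.56 FPKM against 4.31 to 11.6 FPKM with overlap (log2 fold change -0.77, limma unadjusted p = 0.0484, adjusted p = 0.406).

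Of the other identity genes, Adgre1, which encodes F4/80, was 7.0, 8.74 and 5.89 FPKM with IgG and 7.43, 5.25 and 9.31 FPKM with anti-PD-1, a log2 fold change of 0.0055 (SE 0.23, limma adjusted p = 0.994). Csf1r, the receptor for the main macrophage growth factors, differed by 0.11 (SE 0.28, adjusted p = 0.900). The complement genes C1qa, C1qb and C1qc had log2 fold changes of 0.34, 0.40 and 0.32 with adjusted p-values of at least 0.627 from limma. The integrin gene Itgam (0.31, adjusted p = 0.588) and the receptor for dying cells Mertk (0.34, adjusted p = 0.626) had the next smallest p-values of the list after Fcer1g and Tlr4. The mean log2(FPKM + 1) over the 20 genes was 4.23, 4.64 and 3.92 in the IgG tumors and 4.44, 4.07 and 4.54 in the anti-PD-1 tumors, a difference of 0.08 (exact permutation p = 0.8). IgG replicate 3 was the lowest tumor for 9 of the 20 genes and anti-PD-1 replicate 2 for 7, so the tumor with the most Cd68, anti-PD-1 replicate 2, was low for many identity genes.

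Each member was then set against the identity mean of its own tumor. Cd68 minus that mean was 0.02, -0.64 and -0.04 on the log2 scale with IgG and 0.09, 0.91 and 0.38 with anti-PD-1. The groups did not overlap, by a margin of 0.02 against 0.09 (difference 0.68, exact permutation p = 0.1). With the median of the identity genes in place of their mean the difference was 0.64 and the groups overlapped (exact permutation p = 0.3). The other 5 tested members differed by -0.34 (Msr1) to 0.43 (Retnla), with exact permutation p-values of 0.3 to 0.9.

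**Figure D3:**
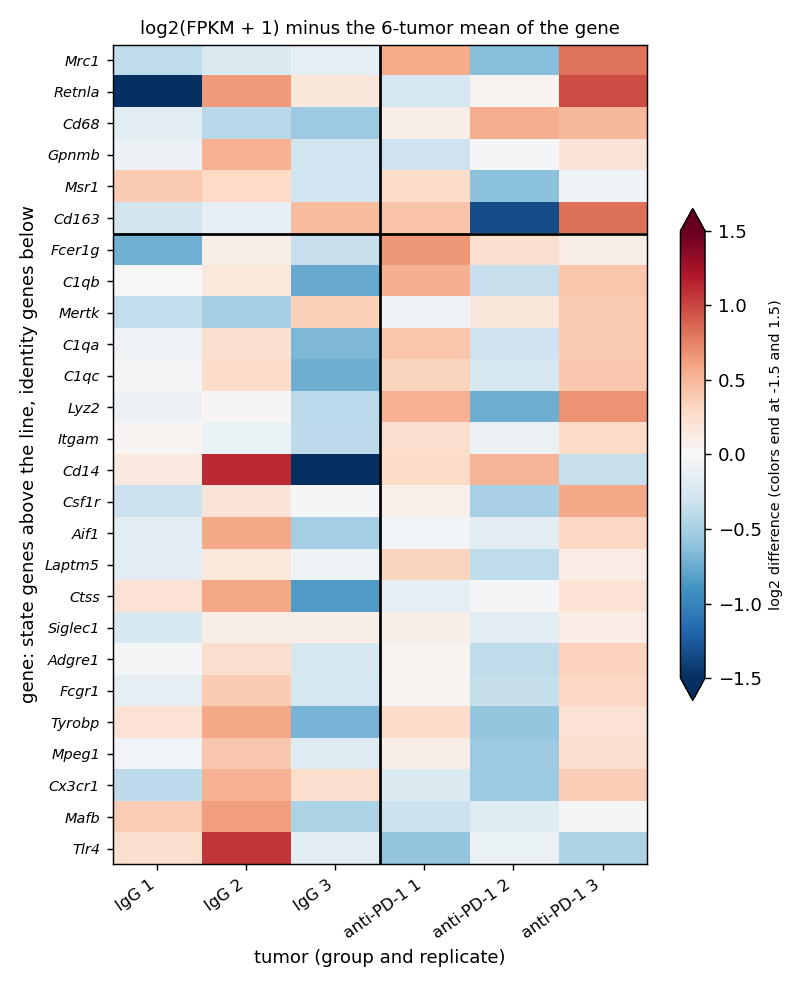
Log2(FPKM + 1) of each gene minus its mean over the 6 tumors, with one column per tumor, red above and blue below the mean and colors ending at -1.5 and 1.5. The 6 tested state genes are above the line and the 20 identity genes below it; anti-PD-1 replicate 2 is the lowest of the 6 tumors for 3 of the 6 and for 7 of the 20.

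Genes of the interferon and lipopolysaccharide state other than Nos2 numbered 19, of which 13 were tested. Of these, 8 were higher and 5 lower with anti-PD-1 (median 0.14), 2 were higher at an unadjusted p under 0.05 (6.22% of all genes tested were), and none was lower (6.05% were). Il12a, a subunit of IL-12, was 0.185, 0 and 0.262 FPKM with IgG and 3.32, 2.36 and 0.394 FPKM with anti-PD-1 (log2 fold change 1.25, SE 0.42, limma adjusted p = 0.355), and it passed the filter only through the anti-PD-1 tumors, so its call is no support for the list. Cd38, an enzyme that consumes NAD, was 4.63, 2.76 and 2.89 FPKM with IgG and 6.24, 5.54 and 9.05 FPKM with anti-PD-1 (0.84, SE 0.24, adjusted p = 0.344). Neither overlapped between the groups, as was so for 9.3% of all genes in this direction. Il23a (0.86, adjusted p = 0.505) and Socs3, a feedback inhibitor of cytokine signaling (0.68, adjusted p = 0.521), had overlapping groups by the same limma fit.

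Of 16 further genes of the IL-4 and IL-13 state, 10 were tested, and 5 were higher and 5 lower (median -0.01). The 2 at an unadjusted p under 0.05 were higher in every anti-PD-1 tumor, beside 6.22% of all genes called higher and 9.3% higher without overlap. They were Clec10a, a galactose-binding lectin of macrophages and dendritic cells, and Egr2, a transcription factor. Clec10a was 0.793, 1.51 and 2.11 FPKM with IgG and 5.53, 2.29 and 3.72 FPKM with anti-PD-1 (log2 fold change 0.95, SE 0.31, limma adjusted p = 0.355). Egr2 was 1.99, 0.670 and 0.979 FPKM with IgG and 3.68, 2.31 and 3.36 FPKM with anti-PD-1 (0.93, SE 0.27, adjusted p = 0.344). Tgm2, a transglutaminase (0.42, adjusted p = 0.549), and Mgl2, a paralog of Clec10a (-0.33, adjusted p = 0.703), had overlapping groups by the same limma fit. Mgl2 reached 4 to 81 reads and passed the filter only through the IgG tumors, and reads shared between Clec10a and Mgl2 could not be separated.

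Scavenger receptors beyond the members numbered 15, of which 12 were tested, with 7 higher, 5 lower and a median of 0.07. Scara3 and Cd5l passed an unadjusted p of 0.05, both higher, as were 6.22% of all genes, and both with overlapping groups. Scara3 was 0.644 to 3.68 FPKM with IgG and 2.67 to 10.9 FPKM with anti-PD-1 (log2 fold change 1.65, limma adjusted p = 0.355). Cd5l, a secreted protein of tissue macrophages, was 0.0609 to 0.658 and 0.503 to 6.203 FPKM (log2 fold change 1.298, adjusted p = 0.399 by limma), and it passed the filter only through the anti-PD-1 tumors, where 1 tumor held the 6.203 FPKM. Scara5, a ferritin receptor, was more abundant, at 29.6 to 50.6 FPKM and 42.5 to 70.5 FPKM (0.58, limma adjusted p = 0.435), and Scarb2, a lysosomal membrane protein, differed by 0.20 (adjusted p = 0.695).

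Of 18 lysosomal and lipid-associated genes other than Cd68 and Gpnmb, 17 were tested, with 12 higher, 5 lower and a median of 0.19. At an unadjusted p under 0.05, 2 were higher and 1 lower (6.22% and 6.05% of all genes were), and the groups did not overlap for 2 higher genes and 1 lower gene (9.3% and 8.75% of all genes). Fabp5, a fatty acid carrier, was 29.9, 11.1 and 10.6 FPKM with IgG and 30.7, 83.2 and 36.1 FPKM with anti-PD-1, without overlap (log2 fold change 1.51, SE 0.49, limma adjusted p = 0.355). Lgals3, the galectin also called Mac-2, was 148, 32.0 and 20.4 FPKM with IgG and 106, 157 and 164 FPKM with anti-PD-1 (1.58, SE 0.66, adjusted p = 0.405 by limma), with overlap because IgG replicate 1 was high. Cd63, a tetraspanin of late endosomes, was lower in every anti-PD-1 tumor, at 24.4, 45.0 and 30.1 FPKM with IgG and 20.2, 15.1 and 23.5 FPKM with anti-PD-1 (-0.71, SE 0.26, limma adjusted p = 0.377). Mitf, a transcription factor of lysosomal genes, was 0.923 to 1.46 FPKM and 1.54 to 1.89 FPKM without overlap (0.36, limma unadjusted p = 0.0972). Trem2, the lipid receptor of such macrophages, differed by 0.09 (limma adjusted p = 0.912). Lysosomal membrane and content genes of the same kind as Cd68 thus lay on both sides of 0, and many cell types besides macrophages make these genes.

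Arginine can go to nitric oxide through the synthases, Nos2 among them, or to ornithine and polyamines. Of 16 further genes of arginine and polyamine metabolism, 13 were tested, with 7 higher, 6 lower and a median of 0.01. Of these, 2 were higher at an unadjusted p under 0.05 and 4 higher without overlap, beside 6.22% and 9.3% of all genes, and none was lower by either measure. Odc1, the ornithine decarboxylase that starts polyamine synthesis, was 9.85, 7.08 and 9.65 FPKM with IgG and 16.5, 15.8 and 15.2 FPKM with anti-PD-1 (log2 fold change 0.78, SE 0.17, limma unadjusted p = 0.00214, adjusted p = 0.344). Sms, the spermine synthase, was 9.12, 3.97 and 4.02 FPKM with IgG and 14.1, 11.9 and 10.2 FPKM with anti-PD-1 (1.04, SE 0.30, adjusted p = 0.344 by limma). Both were higher in every anti-PD-1 tumor. Asl, which makes arginine (0.30, adjusted p = 0.494), and Azin1, which spares ornithine decarboxylase from degradation (0.31, adjusted p = 0.440), also separated the groups, and Oat, the ornithine aminotransferase, did not (0.97, adjusted p = 0.414 by limma).

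**Figure D4:**
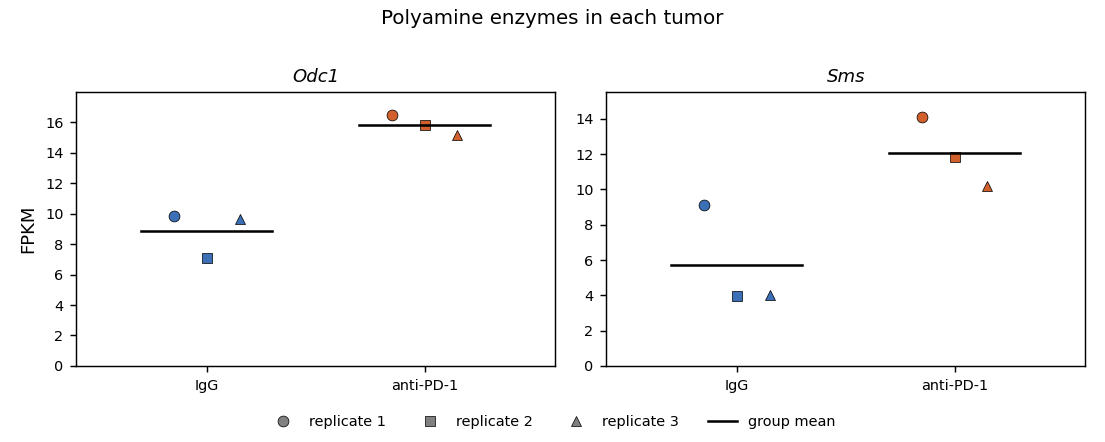
FPKM of the polyamine enzymes Odc1 and Sms in each tumor, on linear axes that start at 0, with symbols for the replicate number and lines for group means. Both are higher in every anti-PD-1 tumor than in any IgG tumor (Odc1 15.2 to 16.5 against 7.08 to 9.85).

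Among 12 cytokines that polarize macrophages, only 5 were expressed highly enough to be tested, with 4 higher, 1 lower and a median of 0.45. Il34, a ligand of Csf1r, was 5.36, 2.32 and 1.86 FPKM with IgG and 13.1, 8.74 and 13.0 FPKM with anti-PD-1 (log2 fold change 1.66, SE 0.32, limma unadjusted p = 0.00123, adjusted p = 0.344). Tgfb1 was 10.1, 4.82 and 10.2 FPKM with IgG and 20.8, 11.4 and 19.6 FPKM with anti-PD-1 (0.98, SE 0.33, adjusted p = 0.357 by limma). Neither overlapped between the groups, and both were higher at an unadjusted p under 0.05, beside 9.3% and 6.22% of all genes. Il4, the inducer of Mrc1, Retnla and Chil3, was 1.26 to 2.53 FPKM with IgG and 2.24 to 2.59 FPKM with anti-PD-1 (0.31, adjusted p = 0.594 by limma), from 38 to 76 reads, and Il33, an alarmin, differed by 0.45 (adjusted p = 0.666). Il13 and Ifng were at 0 with anti-PD-1 and reached 0.481 and 0.415 FPKM in IgG replicate 2, under the filter.

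Genes whose levels followed those of Cd68 most closely were sought among 10207 protein-coding genes that averaged at least 2 FPKM, by Pearson r of log2(FPKM + 1) over the 6 tumors. They were Gtf2f1 (0.993), Ndufa12 (0.991), Serpina3n (0.991), Atp6ap1 (0.991) and Nfkbiz (0.990). They are the highest of 10207 values of r over only 6 tumors. Each of them, like Cd68, was higher with anti-PD-1, with log2 fold changes from 0.52 (Atp6ap1) to 1.87 (Serpina3n). A shared regulation with Cd68 was not tested. Atp6ap1, an accessory subunit of the proton pump that acidifies lysosomes, was 63.8, 56.4 and 48.5 FPKM with IgG and 70.8, 87.9 and 84.4 FPKM with anti-PD-1. Of the other tested members at that level, Mrc1 ranked 4063, Retnla 4418 and Cd163 6474 for likeness to Cd68.

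Cd68 lies in a dense stretch of chromosome 11, and the genes next to it were read beside it, a choice made after its values were seen. Eif4a1, a translation initiation helicase on the same strand that ends 782 bases upstream of Cd68, was 230, 186 and 155 FPKM with IgG and 218, 254 and 195 FPKM with anti-PD-1, with overlap (log2 fold change 0.23, SE 0.21, limma adjusted p = 0.674). Mpdu1, which lies 1570 bases downstream on the same strand and acts in protein glycosylation, was 27.1, 20.5 and 22.1 FPKM with IgG and 33.5, 35.6 and 29.2 FPKM with anti-PD-1, without overlap (0.48, SE 0.17, adjusted p = 0.365 by limma). Mir1934, a microRNA gene on the opposite strand between Cd68 and Mpdu1, had at most 14 reads, and IgG replicate 3 and anti-PD-1 replicate 3 had equal reads of it. Within 100 kb of Cd68, 14 of 18 other tested genes were higher with anti-PD-1 on the log2 scale, with a median of 0.24. Over all genes tested, 50.8% were higher and the median was 0.01. Of the 18, 3 were higher and 1 lower without overlap, beside 9.3% and 8.75% of all genes tested. The same window around any other member held at most 3 tested genes, and for Nos2 all 3 were lower.

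**Figure D5:**
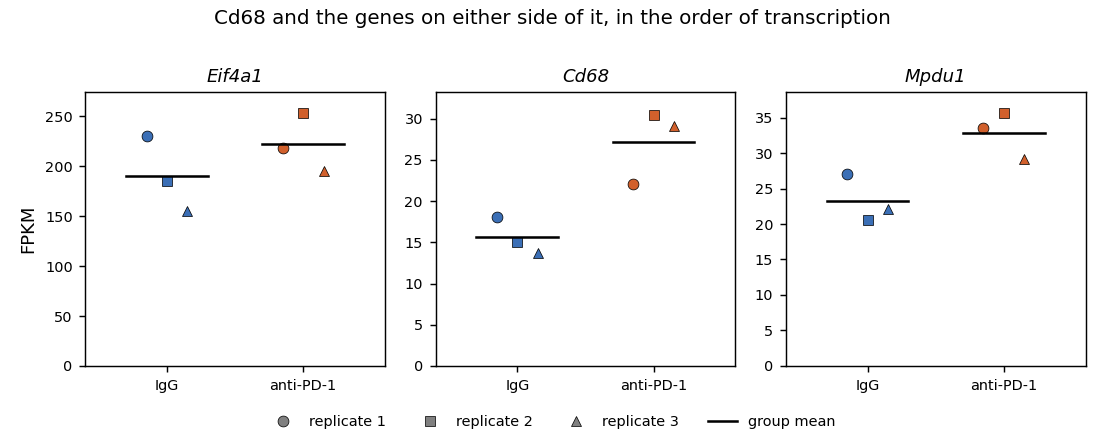
FPKM in each tumor of Cd68 and of the protein-coding genes before (Eif4a1) and after it (Mpdu1) in the order of transcription, on linear axes that start at 0, with symbols for the replicate number and lines for group means. Cd68 and Mpdu1 separate the groups (Cd68 22.1 to 30.5 against 13.7 to 18.1), whereas Eif4a1 overlaps.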

How the data were processed

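RNAseq of 6 mammary tumors was used as deposited. By the labels and methods, the authors checked reads with FastQC 0.11.9, trimmed them with cutadapt 3.5, and aligned and counted them with Bowtie2 2.4.1 and RSEM 1.3.1 on mm10. The authors deposited FPKM for 54532 Ensembl gene IDs per tumor, and how the FPKM was made and whether strand was used are not given in the sources used here. GENCODE M21 (GRCm38) named 54495 of the IDs. Times the merged exon length, 97.0% to 97.3% of the detected values were whole reads within 0.1, which gave the reads quoted; intervals and floors from them cover counting error only.

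FPKM was divided by median-of-ratios factors (1.00 to 1.01), and log2(FPKM + 1) of the 15069 genes with a mean deposited FPKM of at least 0.5 was fitted with limma 3.58.1 in R 4.3.3 (eBayes with trend, two-sided, Benjamini-Hochberg adjustment), on 3 IgG and 3 anti-PD-1 tumors grouped by the labels. The fit was tested on simulated data. Single values were compared by two-sided exact permutation. Python 3.11.15 with pandas 2.3.3, numpy 2.4.6 and matplotlib 3.10.9 was used for the rest.

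The members and gene lists were chosen with earlier results of these data known. Of the 10 genes of the rule, 1 is not reported here, nor are some genes of the lists. Besides the other 9 and 3 paralogs, the genes named were, per list, the 4 non-members with the smallest p and those whose groups did not overlap, per marker list the 2 most abundant tested genes and those without overlap, and the 5 most like Cd68. Others are named for their role in the tissue. Alternatives were another pseudocount, filter, scaling or test, the replicate number as a block and each tumor left out. Promoter sequences came from RefSeq and matched 7 of the 9 members. The authors' own fold changes were not used.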

Additional observations from a re-analysis of the deposited data

How the results depend on the processing

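Cd68 was higher with anti-PD-1 under all 14 alternatives, with log2 fold changes of 0.67 to 0.90 and limma adjusted p-values of 0.124 to 0.760. Its groups did not overlap, so leaving out a tumor could not turn its sign. Leaving out each tumor in turn gave 961 to 2679 genes at an unadjusted p under 0.05 (1848 with all 6 tumors), 0 to 12 genes at an adjusted p under 0.05 (12 without IgG replicate 1, and Fetub alone without IgG replicate 3), 1 to 2 members at an unadjusted p under 0.05 (2, Cd68 and Mrc1, without anti-PD-1 replicate 2) and a median of the tested members of -0.14 (without IgG replicate 1) to 0.61 (without anti-PD-1 replicate 2), beside 0.22 with all tumors. Signs turned for Retnla (-0.15 to 0.96, negative without IgG replicate 1), Gpnmb (-0.27 to 0.14, positive without IgG replicate 2 and, at 0.03, without anti-PD-1 replicate 1) and Cd163 (-0.47 to 0.60, positive without anti-PD-1 replicate 2 and, at 0.18, without IgG replicate 3); the cause was not tested. Without the filter on low FPKM all 9 members were fitted and 6 had a positive log2 fold change. With voom on the recovered reads, 1 gene, Fetub, passed the adjusted threshold. Correlations of deviations were -0.16, 0.01 and 0.19 for equal replicate numbers and -0.26 to 0.24 for unequal ones. With so few tumors they cannot decide whether the numbers pair the tumors. With the replicate block 1725 genes had an unadjusted p under 0.05, 1 of them a member, at unchanged fold changes and with no change of call. Fits were not run for Chil3, Nos2 and Marco beyond the one without the filter, and members with at most 45 reads per tumor allow no statement on a difference.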

Other observations

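Among the marker lists of other cells, T and NK cell genes were nearly all below the filter. Gzmb, the cytotoxic granzyme, was the one tested, at 1.57, 4.84 and 2.29 FPKM with IgG and 0.597, 0 and 0.525 FPKM with anti-PD-1 (log2 fold change -1.45, SE 0.35, limma adjusted p = 0.344, no overlap), and it passed the filter only through the IgG tumors, so the test is conditioned on their level. Under the filter, Cd3d (0.201 to 1.05 and 0 to 0.0692 FPKM) and Ncr1 (0.146 to 0.580 and 0.0253 to 0.109 FPKM) were also lower in every anti-PD-1 tumor, from at most 46 and 22 reads, beside 8.75% of all tested genes lower without overlap. Cd2 (0.12), Foxp3 (0.05) and Klrb1c (0.23) had positive log2 fold changes when fitted without the filter, and Klrb1c (at most 38 reads) had equal reads in its highest IgG and its lowest anti-PD-1 tumor. Of the dendritic cell markers, H2-Ab1 (17.8 to 57.1 and 35.5 to 42.7 FPKM) and Itgax (2.72 to 5.32 and 4.47 to 6.16 FPKM) overlapped, and Zbtb46, a dendritic cell factor under the filter, was lower in every anti-PD-1 tumor (0.371 to 0.987 and 0.174 to 0.285 FPKM). Mmp9 (0.160 to 0.280 and 0.463 to 0.694 FPKM) and Ocstamp, an osteoclast fusion gene (0 to 0.160 and 0.240 to 0.320 FPKM), were higher in every anti-PD-1 tumor, also under the filter, whereas the osteoclast genes Acp5 (14.2 to 37.1 and 9.32 to 26.6 FPKM) and Ctsk (5.83 to 10.4 and 6.42 to 17.1 FPKM) overlapped. Among tested genes, 9.3% were higher and 8.75% lower without overlap. Those shares were not computed for genes under the filter, such as Cd3d, Ncr1, Zbtb46, Mmp9 and Ocstamp. The alveolar macrophage markers Siglecf, Car4 and Fabp1 summed to at most 0.69 FPKM. Mlana, of the melanocyte list, was 0.145, 0 and 0.326 FPKM with IgG and 0.876, 1.25 and 1.14 FPKM with anti-PD-1.

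The summed levels of the marker lists overlapped between the groups, apart from those of the T and NK cell markers and the melanocyte markers. Without Gzmb and without Mlana, respectively, the sums of these lists overlap as well. The 13 neutrophil markers summed to 22.7 to 952 FPKM with IgG, of which 946 was Ltf in IgG replicate 2, and to 21.1 to 141 FPKM with anti-PD-1, and Ngp had at most 2 reads, all of them in anti-PD-1 tumors. The 5 hepatocyte markers summed to 0.10 to 8.30 FPKM with IgG, with Alb highest in IgG replicate 2 at 6.08 FPKM, and to 0.17 to 0.33 FPKM with anti-PD-1. Skeletal muscle genes summed to 0.10, 109 and 3.77 FPKM with IgG and to 62.5, 115 and 0.29 FPKM with anti-PD-1, with Acta1 and Tnnt3 the most abundant. Fibroblast genes summed to 81.2 to 240 FPKM with IgG and 93.0 to 345 FPKM with anti-PD-1, with Col1a1 and Col3a1 the most abundant, and the lower end of the anti-PD-1 range was replicate 2, where Mrc1, Msr1 and Cd163 were lowest. The 5 endothelial genes were all lower with anti-PD-1 (median log2 fold change -0.21, sums of 13.9 to 20.2 and 9.31 to 17.1 FPKM), none at an unadjusted p under 0.05, with Cdh5 and Pecam1 the most abundant. B cell, keratinocyte and adipocyte markers summed to at most 6.94 FPKM in any tumor, and the genes of these lists that were tested, Jchain, Krt10, Sbsn and Fabp4, all had overlapping groups.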
